A study of Mus musculus with 4 samples.

Results

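Unnamed assembled loci are stretches of the genome where an assembler built a transcript from reads without attaching a gene name to it. The loci described here were rows without a gene name and at least 200 bp long in the table of control replicate 1. A row was kept when it overlapped, by at least 1 bp, an unnamed row of at least 200 bp in each table of the other libraries. Of 2255 such rows, 841 (37.3%) met this rule. Of these, 156 overlapped a row with a gene name (a named row) in control replicate 1, and 685 overlapped none there. The class used below rests on that library, while 231 overlapped a named row in at least 1 of the libraries.

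The libraries were made from kidneys of mouse embryos at E18.5 to ask what depends on Hnf4a, a nuclear receptor of the proximal tubule. The 2 control libraries had the genotype Hnf4a c/+ ; Six2GFPcre and the 2 mutant libraries Hnf4a c/c ; Six2GFPcre, in which c denotes the conditional allele, and the strain is given as mixed. Six2GFPcre expresses Cre in the progenitors that form the nephron, not in the stroma, vessels or collecting duct. Since both groups carried it, a control nephron could also lose its conditional copy and is not a fully intact one. The animals are not named in the labels, and how many each library holds is unknown. By the sex markers below, the 2 libraries of each group came from animals of different sex. Every p-value rests on how far these libraries scatter, which includes any difference between the sexes.

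Polyadenylated RNA contains more than annotated transcripts. Messages can run past their annotated ends when a later cleavage site is used, introns can be retained or primed internally, and many promoters also fire away from the gene. An assembler lists such RNA as loci of its own when the reads do not join the gene. Expressed retrotransposons, processed pseudogenes and unannotated long noncoding RNAs can appear in the same way. The tables carry no strand, and their coordinates are of the build mm9.

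Kidney markers were present in every library. FPKM (fragments per kb of transcript, relative to all those mapped in the library) of Lrp2, the endocytic receptor of the proximal tubule, was 48.5 and 44.9 in control and 14.6 and 17.0 in mutant libraries. Six2 of nephron progenitors ranged from 49.9 to 67.0 and Aqp2 of the collecting duct from 146 to 187. The whole-gene FPKM of Hnf4a, 78.5 to 89.3, does not resolve the removed part and so does not check the genotypes. Replicate 1 of each group had Ddx3y, a Y-linked gene, at 27.7 and 26.4 FPKM, and replicate 2 had Xist at 81.0 and 74.0. Ddx3y was at 0.03 in replicate 2 of both groups, and Xist at 0.08 and 0.13 in replicate 1. The groups were alike in this, while the libraries within each group differed in sex. The tables give no read totals, and the depth is unknown.

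The 841 loci were short and of low level. Their length ranged from 202 to 91259 bp with a median of 793 bp, and rows of control replicate 1 without a match in any other table, 441 of them, had a median of 501 bp. Those with a match in 1 or 2 of the other libraries, 466 and 507 rows, had medians of 578 and 621 bp. The level did not follow the same order, with median FPKM of 7.92, 6.67, 6.23 and 6.96 in control replicate 1 for rows matched in 0, 1, 2 and 3 of the other libraries.

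The FPKM of a locus was summed over the unnamed rows overlapping it. Its median was 6.96 and 7.39 in the control libraries and 7.41 and 7.43 in the mutant libraries. Summed over all 841 loci it was 10681 and 12074 in control and 11939 and 11137 in mutant libraries, means of 11378 ± 985 and 11538 ± 568 (SD, n = 2 per group). The mutant values lay within the control range, and the exact two-sided permutation test gave p = 1.0, where 2 against 2 libraries can give no less than 0.333. These sums equalled 1.29% to 1.53% of each table's FPKM, which is not a share held by the loci. A row that met several loci was added once for each, and 502 of the 841 shared a row with another. In control replicate 1 only a locus's own row was counted, so that sum was formed differently. The mutant minus control difference changed sign when overlapping rows were merged. All 841 passed the filter on low values, because every locus was present in all tables, and the lowest unnamed row of at least 200 bp was at 1.84, 1.37 and 1.66 FPKM in control replicates 1 and 2 and mutant replicate 1. A locus present in 1 genotype only is not among them.

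Most loci lay outside the named rows of control replicate 1. Of the 685 that overlapped no named row, 684 had one on their chromosome, at a median distance of 2062 bp, and 551 lay within 10 kb of it. Strand was taken by gene symbol from GENCODE M21. By this, 399 of the 551 lay downstream of the gene and 125 upstream, while 27 had a neighbour of unmatched strand. Within 1 kb, 170 lay downstream and 38 upstream. Between 10 and 100 kb the 2 sides were more even, at 59 and 47. Of the 156 overlapping loci, 140 lay wholly inside the span of a named row, 12 crossed an edge of it and 4 enclosed it. The named rows hit were 110 in number.

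**Figure D1:**
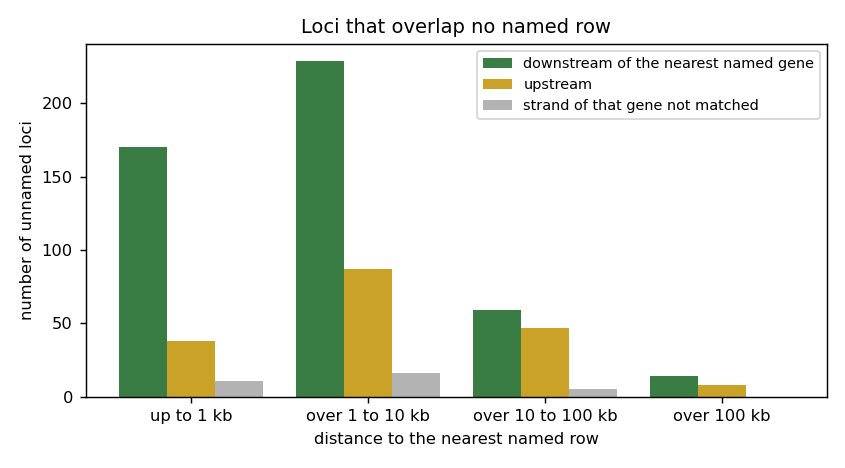
Number of unnamed loci that overlap no named row (y axis) by their distance to the nearest named row (x axis), split by the side of that gene on which they lie. Downstream loci outnumber upstream loci 170 to 38 within 1 kb and 59 to 47 between 10 and 100 kb.

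The nearest named row is not always the nearest gene. The names flanking each locus were looked up in the RefSeq table, of build GRCm38.p6, using it for gene order alone. For 663 loci both flanks could be placed. RefSeq listed no gene between them for 306 loci, 1 gene for 134 and more for 223. A locus of mm9 could not be assigned to a gene of this other build, so no such name is given to one.

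A small set sat at gene starts. Within 250 bp upstream of a named gene lay 22 loci, at 22 genes, among them the developmental regulators Sim1, Prdm16 and Mn1. RefSeq gave a single start for 11 of these genes. Their 250 bases upstream of the start held a median of 21 CG dinucleotides (4 to 40), against a median of 6 over 32851 such windows. The 32851 windows were not matched to these 11 genes by gene type or level. Whether the gap is a trait of the loci was not tested. CG was searched as the letters CG, which read the same on both strands. These upstream bases are shown for the 3 with the highest mean locus FPKM, and for Usp54, which had the fewest CG; capitals mark CG, and the sequences are RefSeq's of GRCm38.p6, 5′ to 3′ on the strand of the gene. They are the neighbouring promoters, not the sequences of the mm9 loci.
Cpsf2, chr12:101975724-101975973, + strand: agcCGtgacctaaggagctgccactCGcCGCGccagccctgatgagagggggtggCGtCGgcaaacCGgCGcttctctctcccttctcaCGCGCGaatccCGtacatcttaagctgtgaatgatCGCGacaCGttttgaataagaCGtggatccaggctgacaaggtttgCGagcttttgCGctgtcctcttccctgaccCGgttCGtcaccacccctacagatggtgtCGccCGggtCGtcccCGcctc
Tgif2, chr2:156839757-156840006, + strand: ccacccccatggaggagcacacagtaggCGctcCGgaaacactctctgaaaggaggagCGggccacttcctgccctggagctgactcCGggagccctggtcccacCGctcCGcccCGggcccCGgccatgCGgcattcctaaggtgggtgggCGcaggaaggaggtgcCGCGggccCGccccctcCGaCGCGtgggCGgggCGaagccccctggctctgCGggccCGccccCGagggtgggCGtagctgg
Scaf8, chr17:3114722-3114971, + strand: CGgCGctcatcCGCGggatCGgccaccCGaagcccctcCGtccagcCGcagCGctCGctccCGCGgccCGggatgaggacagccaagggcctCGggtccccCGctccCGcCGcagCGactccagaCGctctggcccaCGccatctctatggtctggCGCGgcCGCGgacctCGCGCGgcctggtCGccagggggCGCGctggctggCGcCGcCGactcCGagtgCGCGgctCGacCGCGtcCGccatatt
Usp54, chr14:20618355-20618604, - strand: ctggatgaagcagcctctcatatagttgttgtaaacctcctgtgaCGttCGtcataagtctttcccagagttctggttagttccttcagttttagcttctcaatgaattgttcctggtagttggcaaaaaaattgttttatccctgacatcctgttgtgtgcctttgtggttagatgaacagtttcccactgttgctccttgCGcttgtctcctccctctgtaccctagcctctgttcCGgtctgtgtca

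The window of Scaf8, which encodes a protein that binds the tail of RNA polymerase II, held 40 CG, a number reached by 1.31% of all windows. That of Cpsf2, a subunit of the complex that cleaves messages before polyadenylation, held 24 (12.0% of windows hold as many). The window of Tgif2, a homeodomain repressor, held 22 (14.8%), and that of Usp54, a member of the ubiquitin protease family, 4 (62.2%). The locus by Scaf8 was at 33.3 and 33.3 FPKM in control and 28.5 and 30.6 in mutant libraries. That by Tgif2 was at 24.0 and 38.2 in control and 25.1 and 47.1 in mutant libraries, replicate 2 being the higher in both groups. The locus by Cpsf2 was at 55.1 and 69.0 in control and 214 and 36.8 in mutant libraries, so that the mutant libraries lay on both sides of the controls.

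The loci with the highest level had adjusted p of 0.781 or more in limma. The highest of all, on chromosome 18 (68851715 to 68851971, 257 bp) and upstream of Mir6356, had 247 and 229 FPKM in control and 290 and 238 in mutant libraries. A 439 bp locus on chromosome 3 (5860339 to 5860777), far from its nearest named gene Pex2, was at 207, 209, 204 and 183 in the order control 1, control 2, mutant 1, mutant 2. A 210 bp locus on the same chromosome (4211520 to 4211729), with Hnf4g, the paralog of Hnf4a, as its nearest but distant named gene, was at 191, 205, 184 and 196. Its limits moved by a few bases between tables, at lengths of 210, 209, 211 and 208 bp.

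Inside genes, the highest were 220 bp within Fhl2 (chromosome 1, 43245920 to 43246139) and 236 bp within Vmn2r59 (chromosome 7, 49276804 to 49277039). The first was at 201, 192, 210 and 175 FPKM and the second at 199, 178, 193 and 174. Fhl2 encodes a LIM-domain adaptor and was itself at 52.5 to 55.3 FPKM. Vmn2r59, a pheromone receptor gene of the vomeronasal organ, was listed at 0 in every library, so its unnamed locus had a level that the gene row did not. A 408 bp locus within Zc3h7a (chromosome 16, 11144001 to 11144408) had 189, 122, 184 and 155 FPKM, control replicate 2 being the lowest. The mitochondrial chromosome appeared as a single unnamed locus from 46 to 16286, at 135 and 158 FPKM in control and 143 and 129 in mutant libraries. Control replicate 2 and mutant replicate 2 each listed it as 2 rows.

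The limits of the 4 longest loci differed between tables. A row of 91259 bp that meets 4921511C10Rik on chromosome 3 was at 12.9 and 78.5 FPKM in control and 10.7 and 24.5 in mutant libraries. A row of 83153 bp on chromosome 10, upstream of Speer5-ps1, was met by a row of 244 bp in control replicate 2. There it had 36.8 FPKM, against 20.01 in control replicate 1 and 19.2 and 7.35 in the mutant libraries. A row of 68549 bp upstream of Arhgef4 was met by rows of 2533, 21753 and 7518 bp. One of 60636 bp just upstream of Cggbp1 was met by rows of 37121, 63436 and 61818 bp. Such spans can include introns, so length here is the genomic extent of a row and not that of an RNA.

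Across the 841 loci, 1 rose and 0 fell in mutant kidneys at an adjusted p under 0.05 with limma on log2(FPKM + 1), fitted with 13287 named genes and adjusted over all 14128 features. Of all features, 0.0425% were called higher and 0.092% lower. Before adjustment, 47 loci (5.59%) had a p under 0.05 and were higher, and 45 (5.35%) were lower, against 2.56% and 4.47% of all features. These counts were not stable when 1 library was left out: higher calls grew each time, and lower calls grew or shrank. Such a fit leaves 1 library in a group, and its share over all features was not computed, so its counts are not given. The counts by class, position and row number below come from all 4 libraries. The 2 groups did not overlap for 306 loci (36.4%), against 39.6% of all features. The median log2 change was -0.01, with quartiles of -0.34 and 0.38, beside 0.02, -0.11 and 0.15 for all features. The quartiles of the loci were thus wider apart around a similar centre, which is a description and no test.

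Counts are given by class. Of 156 loci overlapping a named row, 1 rose and 0 fell, 8 were higher (5.13%) and 7 lower (4.49%) before adjustment, and the median log2 change was 0.05. Of 685 overlapping none, 0 passed in either direction with limma, 39 were higher (5.69%) and 38 lower (5.55%) before adjustment, and the median was -0.02. Downstream loci within 10 kb numbered 21 higher (5.26%) and 22 lower (5.51%) of 399, and upstream loci 7 (5.6%) and 4 (3.2%) of 125. Loci more than 10 kb from a named row, with the mitochondrial one, numbered 11 (8.21%) and 10 (7.46%) of 134. Over all features 2.56% were higher and 4.47% lower before adjustment. A difference between classes was not tested, since loci are not replicates.

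The locus that rose lies inside Spsb4, which encodes a substrate receptor of a ubiquitin ligase, on chromosome 9 from 96916382 to 96922574. It was at 6.27 and 6.33 FPKM in control and 27.4 and 25.2 in mutant libraries, a log2 change of 1.90 (SE 0.12, adjusted p = 0.0486 with limma). The mutant libraries were close together and far above both controls. As this is RNA from whole kidneys, a change in the number of cells of a type and a change in RNA per cell cannot be told apart here or below. The assembly differed with genotype at this place. Control tables had 1 unnamed row there, and mutant replicates 1 and 2 had 4 and 3.

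The named Spsb4 row also ended elsewhere in the mutants. It ran from 96843901 to 96922574 in control replicate 1 and to 96922321 in control replicate 2, enclosing the locus. In both mutant tables it stopped at 96918774, within the locus. Spsb4 itself was at 50.7 and 45.7 FPKM in control and at 34.9 and 34.3 in mutant libraries (log2 change -0.46, SE 0.08, adjusted p = 0.293 with limma). In the mutants a single unnamed row at the lower-coordinate end of the locus, of 3425 and 2833 bp, had 14.6 and 18.0 FPKM. The other rows were at 2.73 to 5.10 FPKM, each below the 6.27 and 6.33 of the control rows.

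Summing FPKM over rows counts a level once per row, and other measures gave a smaller change at Spsb4. The mean over rows weighted by length changed by 0.69 (adjusted p = 0.286 with limma). FPKM multiplied by length in kb, which for an unspliced row follows the amount of RNA rather than its density, was 38.8 and 32.5 in control and 58.8 and 62.8 in mutant libraries, a change of 0.76 (adjusted p = 0.228). With the replicate number as a block the adjusted p was 0.198, and with any 1 library left out it was 0.144 to 0.213. Over all alternatives run it lay between 0.0434 and 0.286.

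**Figure D2:**
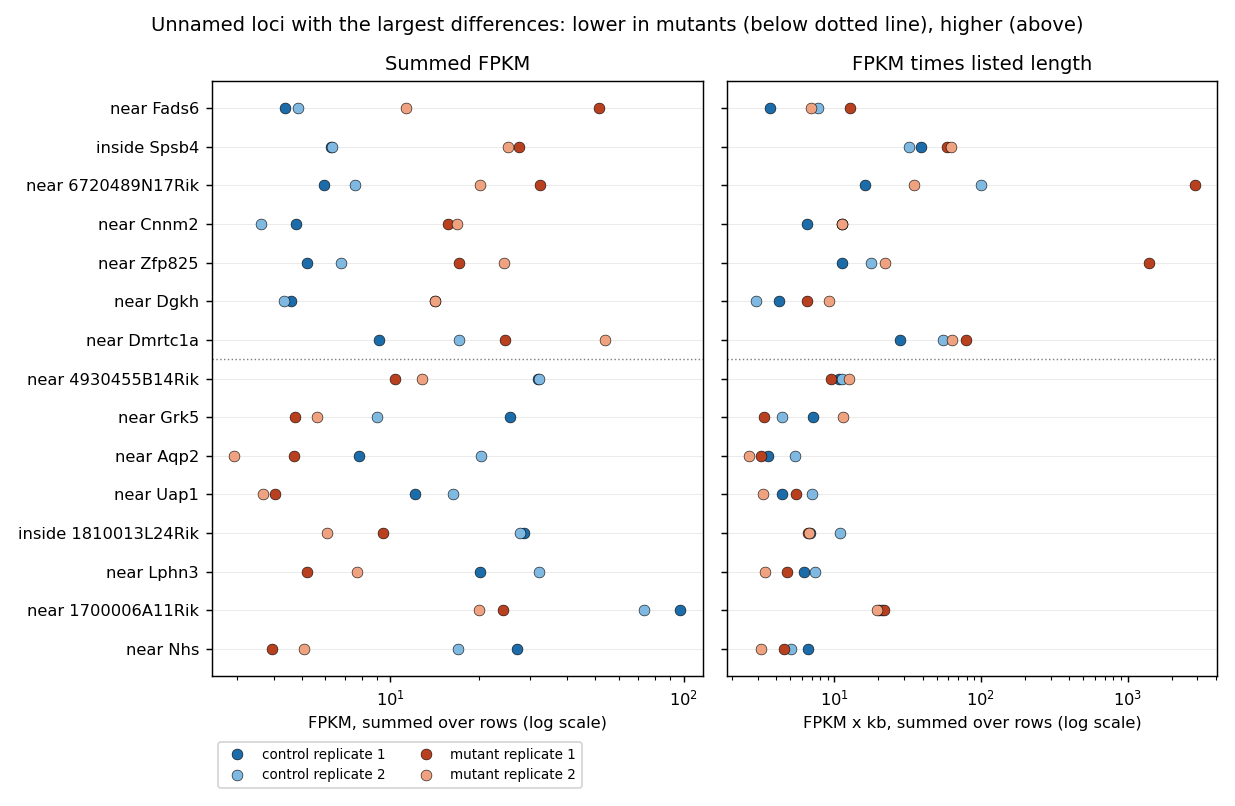
FPKM (left) and FPKM times listed length in kb (right) of the 8 loci most lowered and 7 of the 8 most raised in mutant libraries, 1 point per library on log axes, chosen from loci at an unadjusted p under 0.05 whose groups do not overlap. The locus near 1700006A11Rik has separate groups on the left (73.3 to 97.4 against 20.01 to 24.1) and values from 19.5 to 21.8 on the right. The 73.3, of control replicate 2, lies above the interval deposited for its row, 9.74 to 26.9.

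None of the other loci passed, and the largest differences are given as values. The lowest fitted difference was at a 243 bp locus on chromosome X (158273456 to 158273698) just downstream of Nhs, a regulator of actin remodelling. It was at 27.1 and 17.0 FPKM in control and 3.96 and 5.08 in mutant libraries (log2 change -2.03, SE 0.27, adjusted p = 0.175 with limma). Both mutant values lay below both controls. The 17.0 of control replicate 2 lay above the interval deposited for its own row, 2.69 to 12.1, which covers both mutant values. The row was 243 and 298 bp long in the control tables and 1137 and 625 bp in the mutant tables.

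The clearest case of a length difference was on chromosome 3, from 124088658 to 124088864, downstream of 1700006A11Rik. It was at 97.4 and 73.3 FPKM in control and 24.1 and 20.01 in mutant libraries, a log2 change of -1.90 (SE 0.18, adjusted p = 0.103 with limma). Its row measured 207 and 290 bp in the control and 903 and 974 bp in the mutant tables. FPKM times length in kb was then 20.2 and 21.3 in control and 21.8 and 19.5 in mutant libraries. On that scale the groups overlapped and the log2 change was -0.01. As FPKM, the 73.3 of control replicate 2 lay above the interval deposited for its own row, 9.74 to 26.9, which covers both mutant values.

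A locus on chromosome 14 (9631809 to 9632144) had the same form. It was at 31.8 and 32.2 FPKM in control and 10.3 and 12.8 in mutant libraries, a log2 change of -1.40 (SE 0.13, adjusted p = 0.103). The 32.2 of control replicate 2 lay above the upper bound deposited for its own row, 22.05. That interval covers both of these mutant values. Both control tables had 1 row of 336 and 351 bp, and in both mutant tables there were 2 rows lying on top of each other from the same start, which covered 931 and 977 bp. FPKM times length adds both of these rows. The log2 change of FPKM times length was -0.01, while that of the length-weighted mean was -2.29, with an adjusted p of 0.0406. The same 32.2 of control replicate 2 enters that mean. The nearest named row of the locus, 4930455B14Rik, was more than 100 kb away and listed at 0.

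The other 5 of the 8 lower loci were shortest in a control table too. A locus downstream of Aqp2, the water channel of the collecting duct, was at 7.81 and 20.4 FPKM in control and 4.71 and 2.93 in mutant libraries, with rows of 451, 264, 671 and 891 bp. The 20.4 of control replicate 2 lay above its deposited interval, 2.53 to 12.1, which covers both mutant values. Aqp2 itself was at 187, 158, 165 and 146 FPKM. A locus downstream of Uap1, an enzyme that makes the sugar donor for glycosylation, was at 12.1 and 16.4 FPKM in control and 4.03 and 3.68 in mutant libraries. In control replicate 2 a row of the Uap1 locus, at 11.1 FPKM, lay above its deposited upper bound of 10.3. Uap1 itself, at 26.0 to 30.6, did not separate the groups.

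A locus inside 1810013L24Rik was at 28.6 and 27.7 FPKM in control and 9.41 and 6.09 in mutant libraries. Both of its rows in control replicate 2 lay above their deposited intervals. A locus beside Lphn3, an adhesion receptor gene, was at 20.3 and 32.2 in control and 5.18 and 7.67 in mutant libraries. The 32.2 of control replicate 2 lay above its deposited interval, 2.90 to 13.9, which covers both mutant values. A locus downstream of Grk5, a kinase of G protein-coupled receptors, was at 25.6 and 8.995 in control and 4.73 and 5.60 in mutant libraries. For the last, the log2 change of -1.41 turned to 0.14 when FPKM was multiplied by length.

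All 8 higher loci, that in Spsb4 included, had more than 1 row in at least 1 mutant table and 1 row in each control table. Downstream of Cnnm2, a gene of magnesium handling in the distal nephron, a locus on chromosome 19 (46953604 to 46954977) was at 4.77 and 3.63 FPKM in control and 15.7 and 16.9 in mutant libraries (log2 change 1.74, SE 0.17, adjusted p = 0.108 with limma). Each control table had 1 row there and each mutant library 3. The length-weighted mean changed by 0.23. Cnnm2 itself was at 12.5 to 15.0 FPKM with overlapping groups.

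A locus downstream of Dgkh, a diacylglycerol kinase, was at 4.58 and 4.32 FPKM in control and 14.2 in both mutant libraries, from 1 row per control table and 2 per mutant table. Its length-weighted change was 0.40. In mutant replicate 2 a row of 366 bp at this locus, at 9.66 FPKM, lay above its deposited upper bound of 9.32. Dgkh itself was at 16.7 and 4.40 in control and 4.67 and 5.04 in mutant libraries.

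The locus downstream of Fads6 showed how 1 short row can set a value. It was at 4.37 and 4.82 FPKM in control and 51.3 and 11.3 in mutant libraries. Of the 51.3, a row of 207 bp in mutant replicate 1 gave 48.2, which lay above the upper bound of 15.8 in the deposited interval for that row. The remaining 3 higher loci lay 48347 to 89937 bp from a named row, near 6720489N17Rik, Zfp825 and Dmrtc1a. That near 6720489N17Rik was at 5.94, 7.59, 32.4 and 20.2 FPKM, that near Zfp825 at 5.18, 6.78, 17.1 and 24.4, and that near Dmrtc1a at 9.12, 17.2, 24.7 and 53.8. In mutant replicate 1, rows of 197251 and 133696 bp were counted at the first and second of these. At each of the 3, a row of mutant replicate 2 lay above its deposited interval.

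The number of rows and their length moved with the change over all 841 loci. For 215 loci with more rows in the mutant tables, 36 were higher and 2 lower before adjustment, with a median log2 change of 0.57; over all features 2.56% were higher and 4.47% lower. For 545 with as many rows it was 11 higher and 34 lower, with a median of -0.08, and for 81 with fewer rows 0 and 9, with a median of -0.65. The change and the row difference had a Spearman rho of 0.61 across 841 loci. Loci share libraries and in part rows, and are not independent.

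Where every table had 1 row, 495 loci, the change ran against length. Spearman's rho between the log2 change and the log2 ratio of lengths was -0.51. Of the 45 loci lower at an unadjusted p under 0.05, 40 covered more bases in the mutant tables, with a median ratio of 1.93. Of the 47 higher loci 28 did too, with a median ratio of 1.08, and over all members 606 of 841, with a median of 1.25. Length and row number are part of how a summed FPKM is formed, and the part of RNA level in these differences was not tested.

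**Figure D3:**
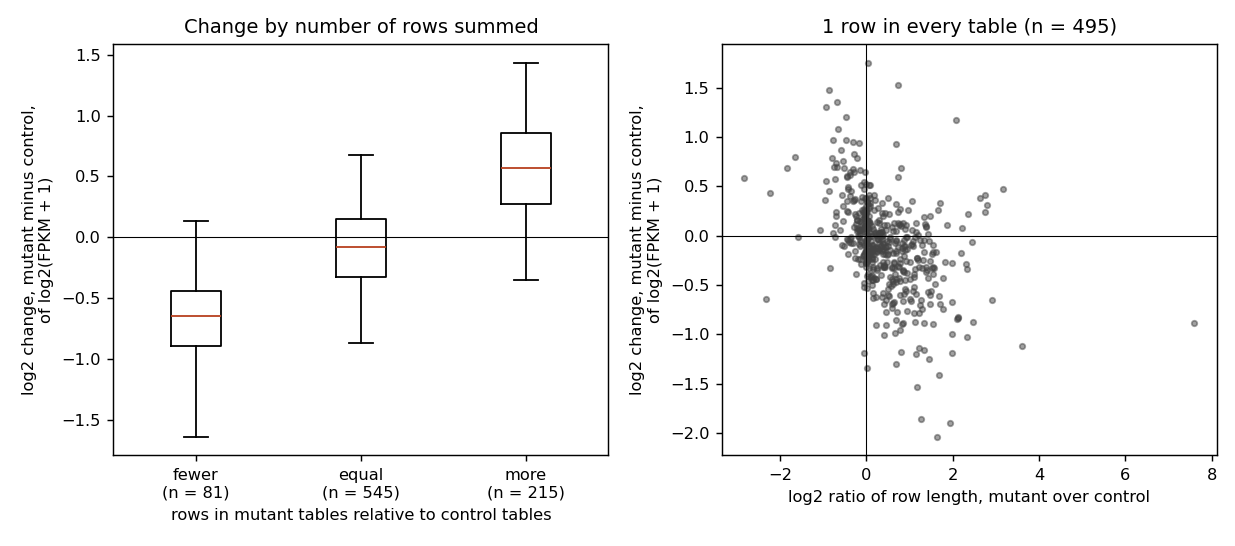
Log2 change of unnamed loci by whether mutant tables had fewer, as many or more rows than control tables (left; box for quartiles and median, whiskers for the 5th and 95th percentile), and against the log2 ratio of row length for loci with 1 row in every table (right). The medians are -0.65, -0.08 and 0.57, and on the right the change falls as the row gets longer.

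The direction of the unadjusted calls followed the measure used. With the length-weighted mean 21 were higher and 49 lower (2.5% and 4.57% of all features), and with FPKM times length 87 were higher and 18 lower (2.85% and 4.19%). On this last scale control replicate 1 adds only a locus's own row, while the other tables add whole overlapping rows times their length. A 399 bp locus in Acsm1 met rows covering 32278 to 32357 bp in the other tables and changed by 3.47. How far this sets the 87 was not tested. Among 252 loci that met exactly 1 row in each other table, which met no other locus, 11 were higher and 19 lower (2.67% and 4.59% of all features in that fit). Of the 841 loci, 502 shared a row in another table with another of the 841. Merging all overlapping rows left 601 loci present in all 4 tables, with 36 higher and 59 lower (2.53% and 4.63%). Requiring an overlap of at least 0.5 of the shorter row left 736, with 32 higher and 36 lower (2.55% and 4.48%). With the replicate number as a block, 67 of 841 were higher and 50 lower (2.87% and 4.3%).

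Replicate scatter was larger than for named genes. The median residual SD of log2(FPKM + 1) was 0.12 for named genes, 0.27 for loci with 1 row in every table and 0.65 for the 346 others. Pearson's r of the log2 values was 0.63 between control and 0.69 between mutant libraries over 841 loci, against 0.95 and 0.95 over 13287 named genes. For loci with 1 row throughout it was 0.83 and 0.84, and for the others 0.41 and 0.39. The 40 loci of 200 to 300 bp had a median FPKM of 26.8, the highest of the length classes, while loci of 300 to 600 bp had 7.13 and those of 600 to 1000 bp 6.71. Between 47.5% and 55% of these shortest loci had, outside control replicate 1, an FPKM outside the deposited interval of its own row or rows.

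Of 13 lists of kidney, blood and regulatory genes, 48 loci overlapped a listed gene or lay within 10 kb of one. Of the 48, 0 passed the adjusted threshold in limma, 4 were higher (8.33%) and 2 lower (4.17%) before adjustment, against 2.56% and 4.47% of all features. The median log2 change was 0.32, beside 0.02 for all features, but 11 of the 48 lay at Acsm1 and Six2, where control replicate 1, which contributes its own row only, was the lowest library. Without these 11 the median was -0.03, and with overlapping rows summed in control replicate 1 too it was -0.19 over all 48, so its sign rests on how these loci are counted. The blood and macrophage list had 0 loci. The lists are described in turn, as levels.

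At proximal tubule genes, where Hnf4a acts, loci and genes are given side by side. Slc2a2, a sugar carrier of the basolateral membrane, was at 24.2 and 25.8 FPKM in control and 14.0 and 16.6 in mutant libraries (log2 change -0.68, adjusted p = 0.293 with limma). A 1006 bp locus starting 413 bp downstream of it was at 7.13 and 4.58 in control and 8.94 and 3.79 in mutant libraries, and the groups overlapped. A 550 bp locus further on was at 5.95 and 4.58 in control and 3.52 and 3.79 in mutant libraries. Both were met by the same row of 2042 bp in control replicate 2. The locus just downstream of Mme, the brush border peptidase neprilysin, was at 4.90, 4.98, 4.01 and 5.75 FPKM, with overlapping groups.

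Slc9a3, the sodium-proton exchanger of the brush border, held a 711 bp locus (chromosome 13, 74269057 to 74269767). It was at 2.96 and 3.86 FPKM in control and 7.5 and 12.7 in mutant libraries, with an unadjusted p of 0.0109 and an adjusted p of 0.424 in limma. The row was 711 and 657 bp long in control and 426 and 296 bp in mutant tables. On the scale of FPKM times length the log2 change of 1.30 became 0.43. Slc9a3 itself was at 8.09, 7.84, 8.38 and 15.3, so mutant replicate 2 was the highest for both gene and locus.

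Acsm1, a mitochondrial acyl-CoA synthetase, was the gene with the most loci, 6 overlapping it and 1 upstream. The gene row was at 18.1 and 10.4 FPKM in control and 4.92 and 5.27 in mutant libraries (log2 change -1.28, SE 0.29, adjusted p = 0.419 with limma). The longest locus, 38073 bp on chromosome 7 (126747921 to 126785993), was at 25.3 and 32.4 in control and 30.6 and 42.8 in mutant libraries. The 6 shorter ones were at 2.05 to 11.9 FPKM in control replicate 1 and at 15.6 to 24.5 in the other 3 libraries. Each of these 6 met rows covering 32278 to 32357 bp in each of the 3 tables, whereas in control replicate 1 only its own row of 399 to 1841 bp was counted. They share rows and are not separate measurements.

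Loci also lay at genes of nephron progenitors. Six2, which keeps progenitors undifferentiated, had 4 loci upstream, with the longest (23522 bp, chromosome 17, 86090117 to 86113638) at 16.1 and 39.6 FPKM in control and 32.4 and 81.4 in mutant libraries. It held 1, 4, 5 and 6 rows in the 4 tables. The 3 others were at 6.999 to 9.62 in control replicate 1 and at 18.4 to 23.7 in the other libraries. Six2 itself was at 67.0 and 49.9 in control and 58.4 and 55.9 in mutant libraries.

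A locus of 20399 bp in Pax2, a paired-box factor of nephron and collecting duct, was at 9.44 and 21.7 FPKM in control and 19.2 and 13.1 in mutant libraries. Its rows covered 20399 and 20255 bp in control tables and 974 and 1083 bp in mutant tables.

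Hox genes, which place the kidney along the body axis, had 5 loci. A locus of 16154 bp that meets Hoxb3 was at 35.1 and 65.1 in control and 98.2 and 104 in mutant libraries (log2 change 1.06, adjusted p = 0.579). It was split into 1, 4, 6 and 7 rows in that order, and its length-weighted change was -0.70. The locus in Hoxd8 was at 49.7, 30.2, 36.6 and 36.0 and that in Hoxc4 at 6.80, 4.204, 3.04 and 5.36, both with overlapping groups.

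**Figure D4:**
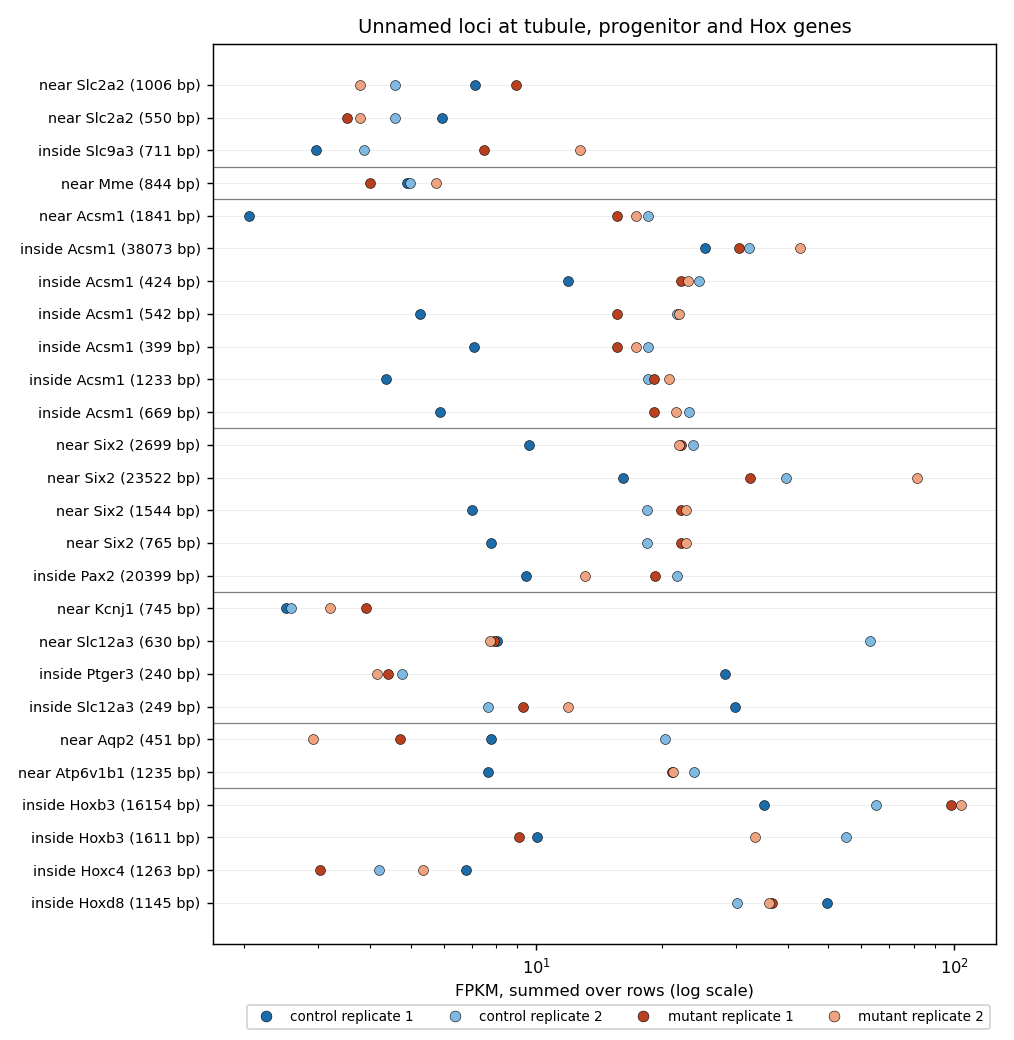
FPKM on a log axis of the unnamed loci that overlap or lie within 10 kb of some of the listed tubule, progenitor and Hox genes, 1 point per library, with the length in control replicate 1. Control replicate 1 is the lowest point for the 6 short loci at Acsm1 (2.05 to 11.9 FPKM) and the 3 shorter ones at Six2.

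Other lists gave single loci with wide spread. A locus in Ptger3, a prostaglandin receptor of the thick limb, was at 28.2 FPKM in control replicate 1 and at 4.77, 4.43 and 4.16 in the others, with rows of 240, 1326, 608 and 1340 bp. A locus downstream of Slc12a3, the thiazide-sensitive carrier, was at 62.9 in control replicate 2 and at 8.03, 7.92 and 7.73 in the others. Downstream of Kcnj1, the potassium channel ROMK, the values were 2.52 and 2.59 in control and 3.92 and 3.20 in mutant libraries. Kcnj1 itself was at 22.9 and 26.4 in control and 29.6 and 33.0 in mutant libraries (adjusted p = 0.691 with limma).

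Vegfa, the vascular growth factor made by podocytes, held a 250 bp locus at 61.6, 58.4, 73.6 and 19.1 FPKM, the last from a row of 577 bp. One of 2 loci in Flt1, a receptor for it on endothelium, was at 12.7 and 10.1 in control and 7.55 and 8.06 in mutant libraries (unadjusted p = 0.0408, adjusted p = 0.685 with limma). Its log2 change of -0.49 was 0.06 for FPKM times length. Among imprinted genes, a locus in Meg3, a maternally expressed noncoding RNA, was at 12.5, 17.5, 15.6 and 65.0. A locus downstream of Zim1 was at 11.8, 41.5, 13.3 and 11.5, and 1 library stood apart in each.

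The change of a locus had little linear relation to that of its gene. Over 131 loci overlapping a tested gene (84 genes), Pearson's r between the 2 log2 changes was -0.09 and Spearman's rho -0.03. For the 81 with 1 row in every table r was 0.08. Over 519 loci within 10 kb of a tested gene r was 0.06, and over the 376 downstream ones 0.12. These are descriptions over loci that share libraries and in part genes. The level was more alike for overlapped genes, with a rho of 0.37 and median FPKM of 9.53 for the loci against 15.8 for the genes. For neighbouring genes the rho of level was 0.15, and for the downstream ones 0.13, beside a rho of change of 0.03 and 0.11.

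**Figure D5:**
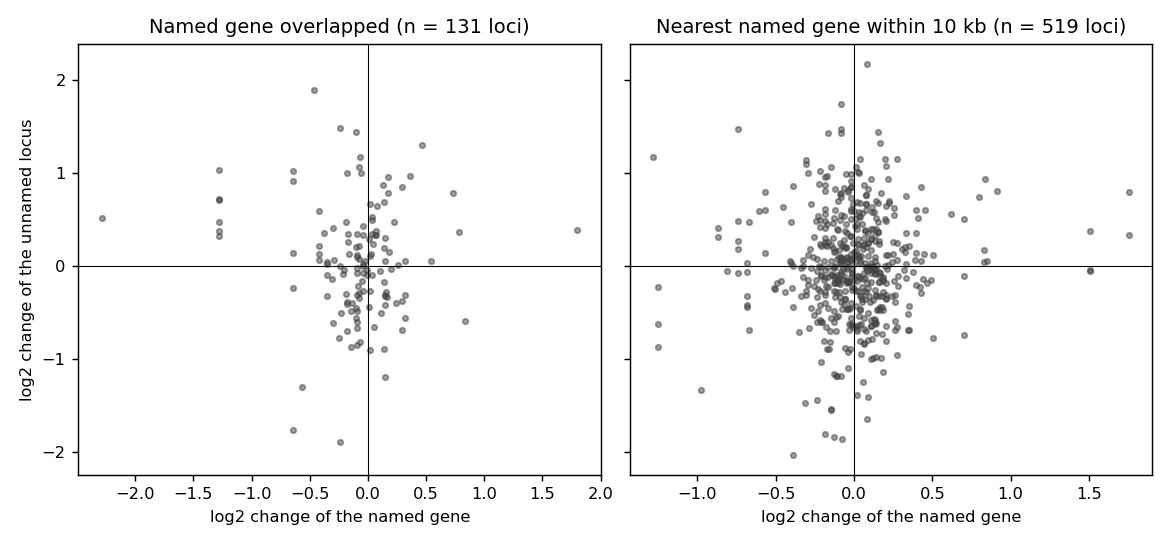
Log2 change of each unnamed locus (y axis) against that of the named gene it overlaps (left, 131 loci) or its nearest named gene within 10 kb (right, 519 loci), mutant minus control on the log2(FPKM + 1) scale. Points lie in all quadrants, with r of -0.09 and 0.06.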

How the data were processed

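Polyadenylated RNA of 4 kidney libraries was sequenced, and the deposited tables give FPKM with interval bounds per gene row, 1 table per library. The authors used Cufflinks 2.1.1, SAMtools 0.1.19, TopHat2 2.0.11 and Bowtie 1.0.0 on mm9, per the submitters' processing notes; options and annotation were not given in the sources used here. Loci were assembled per library, so a row's limits differ between tables. Starts were read as 0-based and are printed 1-based.

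Members, gene lists and the rule for named loci were chosen with earlier results of these data known. The rule names members past the threshold, or else the 8 largest differences per direction at an unadjusted p under 0.05 without overlap, the 6 highest, the 4 highest without a named row, the 4 longest, mitochondrial loci and up to 3 overlapping and 2 neighbouring loci per list; further list loci and those at gene starts were named after their values were seen. In control replicate 1 only a locus's own row counts. FPKM was tested as log2(FPKM + 1), which understates changes at low levels, for features of at least 1 FPKM in 2 libraries, with limma 3.58.1 (R 4.3.3; trend, group only) and Benjamini-Hochberg adjustment at 0.05, tested on simulated data. Other settings numbered 19, with 3 more chosen after seeing the data: rows of control replicate 1 summed too, a length-weighted mean, and FPKM times length. A few named loci are left out of the text but stay in all counts.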

Additional observations from a re-analysis of the deposited data

How the results depend on the processing

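The call of 1 higher locus became 0 with no filter on level, quantile normalization, eBayes without a trend and the replicate block. It was also 0 with a minimum length of 1000 bp and the length-weighted mean. Among one-to-one loci there were 0 calls too, but the Spsb4 locus, with 4 and 3 rows in the mutant tables, cannot be in that set. With rows of any length there were 3 calls. Lower calls became 1 with merged rows and with the length-weighted mean. Overlapping loci had 0 calls under those same settings that gave 0 above and with FPKM times length. Merged rows and rows of any length gave 2. Loci overlapping no named row had 1 call with rows of any length, the length-weighted mean and FPKM times length. Unadjusted higher calls became 11 at 1000 bp, 11 for one-to-one loci, 21 for the length-weighted mean and 87 for FPKM times length, and ranged from 50 to 97 without 1 library: leaving out control replicate 2 gave 81, mutant replicate 1 gave 90 and mutant replicate 2 gave 97. Unadjusted lower calls became 3, 19 and 18 (1000 bp, one-to-one, FPKM times length), and ranged from 32 to 111: 111 without control replicate 1 and 95 without control replicate 2. The number of members became 233 at 1000 bp and 252 for one-to-one loci. The mutant minus control mean of summed FPKM, 160, became -964 with merged rows and 33052 with rows of any length, which let rows under 200 bp in. The r of locus and overlapped gene became -0.19 at 1000 bp, 0.14 for one-to-one loci, 0.10 with control replicate 1 summed too and -0.26 for FPKM times length. The Grk5 locus turned to 0.14 with FPKM times length. The smaller member sets test fewer loci; otherwise the cause was not tested.

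Replicate numbers were shared between groups, but nothing in the labels ties them to a litter or day. By Ddx3y and Xist the number coincided with sex in both groups, so a block by number is also a block by sex. The correlation of same-number deviations was 0.02 over the loci and 0.15 over named genes. With the number as a block 0 loci passed, and 67 were higher and 50 lower before adjustment. With 2 libraries a group and unknown depth, a difference of this kind below the scatter of the loci was not detectable.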

Other observations

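The rule leaves out loci that drop out of a table, and their numbers were counted after the data were seen, with all overlapping unnamed rows of at least 200 bp merged to 3988 loci. Of these, 120 had a row in both control tables only and 169 in both mutant tables only. Pairs that cross the genotypes gave 103 (control replicate 1 with mutant replicate 1), 123 (control replicate 1 with mutant replicate 2), 109 (control replicate 2 with mutant replicate 1) and 153 (control replicate 2 with mutant replicate 2). Pairs with mutant replicate 2 were the more numerous, and that table also had the most loci of its own, 814, against 439, 398 and 426 in control replicates 1 and 2 and mutant replicate 1. It held 2739 unnamed rows of this length, where the others held 2241 to 2269, and its lowest such row was at 0.667 FPKM, where the others began at 1.37 to 1.84.

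Chromosome 2 had the most members, 96 of 222 unnamed rows in control replicate 1, followed by chromosome 7 with 75 of 161. Chromosome X had 26 of 56, and the Y chromosome 0 of 1.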
